A study of Mus musculus with 15 samples.

Results

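The enzymes that break down fatty acids in mitochondria and peroxisomes were followed in the colon of mice fed heme, the pigment that gives red meat its colour. The set held 33 genes out of 18194 genes on the array, read from probe sets annotated to a single symbol. The list of symbols was chosen with earlier results of these data known. Counts of its genes beside all tested genes are therefore a description and no test of the set. Of the 33 genes, 20 encode mitochondrial enzymes, 9 peroxisomal proteins, 3 enzymes found in more than one compartment and 1 a cytosolic thioesterase. The set is mainly one of fatty acid oxidation: Bdh1, which interconverts the ketone bodies acetoacetate and beta-hydroxybutyrate, was the only member placed in it for ketone bodies alone, and some enzymes of ketogenesis and of peroxisomal oxidation were not analysed here.

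All mice were 11-week-old C57BL/6 males kept for 14 days on a diet high in fat (40% of energy) and low in calcium. The control group of 6 mice ate this diet without heme, and the 9 heme mice ate it with 0.5 umol heme per g. The colon was freed of mesenteric fat, opened, washed and scraped, so each sample is a mixture of mucosal cells. Each mouse was hybridised to 1 Affymetrix array, the replicates are separate mice, and expression is given as log2 of the normalised signal. In such bulk samples, fewer cells of a type and less RNA per cell cannot be told apart.

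Mitochondrial beta-oxidation shortens acyl-CoA chains by acetyl-CoA units after the carnitine shuttle has carried them across the inner membrane. Each turn consists of a dehydrogenation, a hydration, a second dehydrogenation and a thiolytic cleavage, and the electrons of the first step enter the respiratory chain through the electron transfer flavoprotein. Peroxisomes run a similar cycle on very long and branched chains and pass the shortened products to mitochondria. Many genes of both cycles are known targets of the nuclear receptor PPARalpha, and colonocytes are known for their use of short-chain fatty acids as fuel.

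A gene was tested where its signal passed 20 (log2 4.32) on at least 6 arrays, which 9257 genes and 32 of the 33 members did. With heme, 26 of the 32 tested members rose, 0 fell and 6 were not called, at an adjusted p under 0.05 in limma with Benjamini-Hochberg adjustment over all tested genes. Over all tested genes, 53.6% were called, 27.2% higher and 26.4% lower. The median log2 difference, heme minus control, was 0.47 over the members and -0.01 over all tested genes. In 18 of the 32 members every heme mouse lay above every control, against 11.2% of all tested genes, and in 0 did every heme mouse lie below every control, against 8.93%. A rise of at least 2-fold was found for 5 members, Acot2, Acot1, Acaa1b, Ehhadh and Acads, and for 2.98% of all tested genes. The member not tested was Acox3, the branched-chain acyl-CoA oxidase, which was under the floor in 5 of 6 controls and 7 of 9 heme mice.

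**Figure D1:**
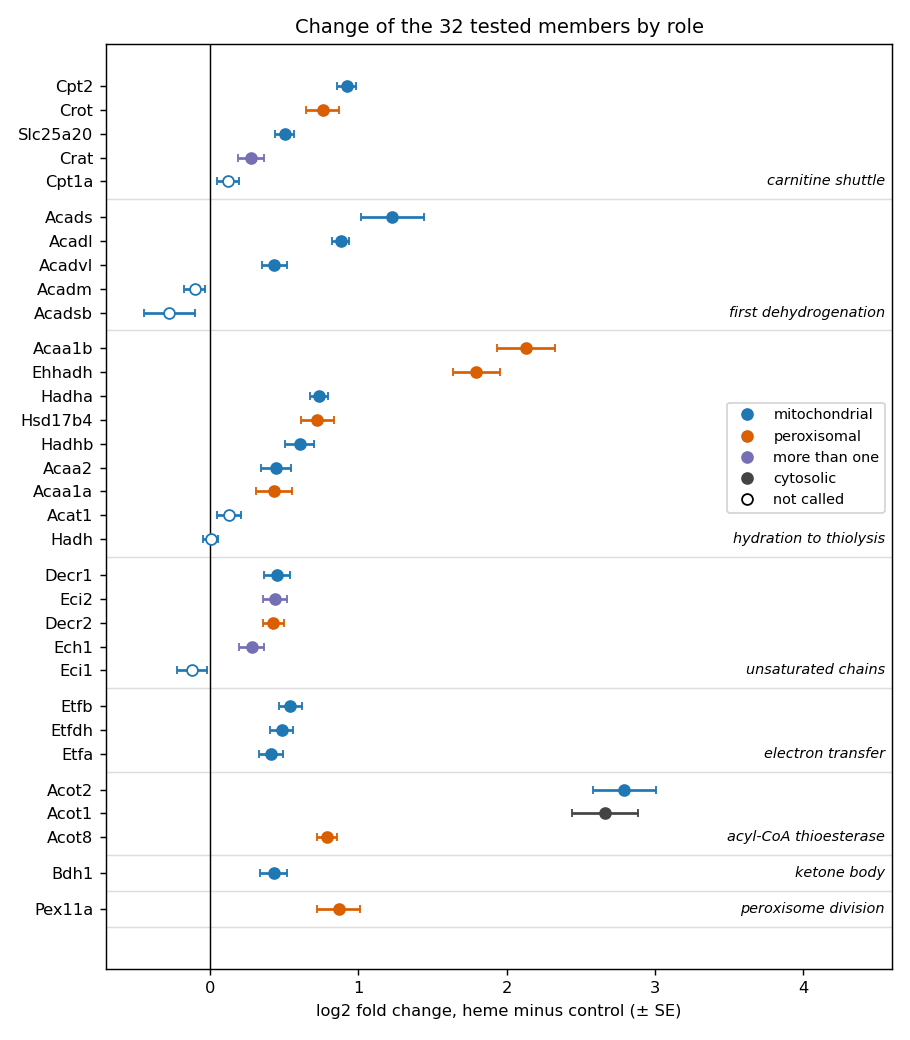
Change of each of the 32 tested members, heme minus control, in log2 units with its standard error, grouped by role. Colours give the compartment and open circles the 6 members that were not called; the thioesterases Acot2 and Acot1 and the peroxisomal enzymes Acaa1b and Ehhadh lie farthest to the right, between 1.80 and 2.79.

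The start regions of the 4 members that rose most are shown because these genes moved together by the widest margin. Each run is the 250 bases before the RefSeq transcript start on GRCm38.p6, read 5′ to 3′ on the gene's strand, with each CCAAT box, or its reverse complement ATTGG, in capitals. The windows are chr12:83987611-83987860, plus strand for Acot2, chr12:84009252-84009501, plus strand for Acot1, chr9:119157094-119157343, minus strand for Acaa1b and chr16:21787835-21788084, minus strand for Ehhadh.
Acot2: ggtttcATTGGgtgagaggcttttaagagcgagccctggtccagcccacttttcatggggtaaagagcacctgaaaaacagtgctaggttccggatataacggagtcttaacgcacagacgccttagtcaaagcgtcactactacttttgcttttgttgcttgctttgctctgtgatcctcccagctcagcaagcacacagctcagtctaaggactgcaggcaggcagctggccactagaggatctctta
Acot1: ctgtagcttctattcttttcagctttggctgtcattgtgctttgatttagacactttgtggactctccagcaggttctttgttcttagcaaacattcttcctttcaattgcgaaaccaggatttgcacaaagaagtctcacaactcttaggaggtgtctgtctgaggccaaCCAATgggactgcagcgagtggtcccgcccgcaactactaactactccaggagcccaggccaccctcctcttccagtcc
Acaa1b: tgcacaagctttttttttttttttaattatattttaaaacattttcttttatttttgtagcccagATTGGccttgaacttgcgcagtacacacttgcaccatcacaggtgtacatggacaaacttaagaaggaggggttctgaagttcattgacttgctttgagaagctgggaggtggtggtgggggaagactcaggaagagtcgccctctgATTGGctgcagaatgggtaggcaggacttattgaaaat
Ehhadh: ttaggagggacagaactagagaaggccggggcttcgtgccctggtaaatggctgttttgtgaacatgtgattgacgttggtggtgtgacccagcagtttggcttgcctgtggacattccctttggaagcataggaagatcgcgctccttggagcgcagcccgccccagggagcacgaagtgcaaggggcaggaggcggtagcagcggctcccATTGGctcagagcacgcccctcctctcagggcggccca

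Promoter windows were matched for 28 members, in 29 windows. On both strands, the direct repeat of the nuclear receptor half-site AGGTCA with any 1 base between the copies, known as DR1, was found in 0 of the 29 windows and in 0.0335% of all 32851 windows of this length. The same repeat of the looser half-site AGGNCA, which holds every match of the first, was also found in 0 member windows and in 0.338% of all windows. A single AGGTCA was present in 3 member windows, those of Acadm, Acadvl and Cpt1a, and in 14.0% of all windows. CCAAT was present in 13 of the 29 member windows and in 33.8% of all. These are letter matches in a short window and describe the sequence only.

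In the carnitine shuttle 4 of 5 members rose, and Cpt1a was not called. Cpt1a encodes the outer-membrane carnitine palmitoyltransferase that commits long chains to mitochondrial oxidation. It ranged from 10.96 to 11.56 with a median of 11.35 in controls, and from 11.32 to 11.54 with a median of 11.44 in heme mice. Control 2 was the lowest of all mice, the heme values lay inside the control range, and the difference of 0.12 ± 0.08 (SE; 95% interval -0.04 to 0.28; limma adjusted p = 0.188) was not called. Cpt2, the inner-membrane transferase that rebuilds acyl-CoA, ranged from 10.48 to 10.90 (median 10.61) in controls and from 11.50 to 11.68 (median 11.56) in heme mice. The groups were apart by more than the width of either, and Cpt2 rose 1.90-fold (log2 0.92 ± 0.07 SE, limma adjusted p = 5.21e-08). Slc25a20, the carrier that exchanges acylcarnitine for carnitine, rose by log2 0.51 ± 0.06 (SE, limma adjusted p = 1.32e-05) with every heme mouse above every control.

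The peroxisomal arm of the shuttle also moved. Crot makes octanoylcarnitine from the shortened products that leave peroxisomes. Its values ran from 9.49 to 10.16 (median 9.76) in controls and from 10.28 to 10.92 (median 10.57) in heme mice, without overlap. The rise was 1.70-fold (log2 0.76 ± 0.11 SE, limma adjusted p = 4.46e-05). Crat, which handles acetyl groups, rose by log2 0.28 (limma adjusted p = 0.0145), and 5 of 9 heme mice lay above all controls.

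The Cpt1a value depended on the probe set. The probe set with the highest mean gave log2 0.12 ± 0.08 (SE), and 2 further probe sets annotated to Cpt1a gave 0.29 ± 0.11 and 0.49 ± 0.12. In a limma fit over all 17910 probe sets over the floor, in which 24.9% rose, their adjusted p-values were 0.200, 0.0313 and 0.00241. Both further probe sets carry the array's suffix for probes that may match other transcripts, as do the probe sets used here for Hadhb, Hadh, Acaa1a and Acadsb. In 7 and 8 of the 9 heme mice, respectively, they lay above all controls, against 0 for the first.

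**Figure D2:**
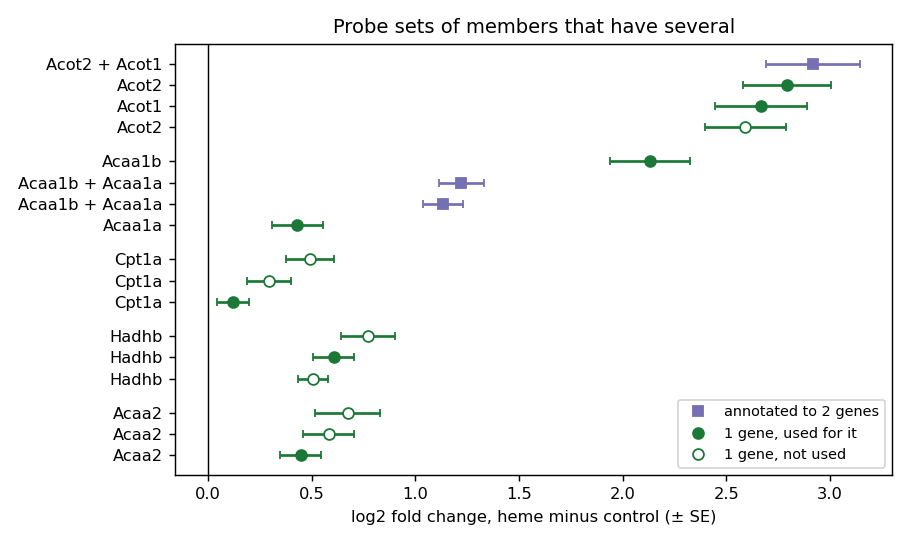
Log2 difference, heme minus control, with its standard error for each probe set of selected members that have several. Squares mark probe sets annotated to a pair of genes, filled circles the one used for a gene and open circles the others; the Cpt1a probe sets run from 0.12 to 0.49, and the Acaa1b and Acaa1a sets from 0.43 to 2.13. The open Acot2 probe set was under the signal floor in all 6 controls, so its position is a fitted value and no bound.

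The acyl-CoA dehydrogenases, which take chains of decreasing length through the first dehydrogenation, split into members that rose and members that did not. Acadl, the long-chain enzyme, ranged from 11.31 to 11.68 (median 11.52) in controls and from 12.25 to 12.48 (median 12.40) in heme mice. It rose 1.84-fold (log2 0.88 ± 0.06 SE, limma adjusted p = 1.50e-08), with the groups well apart. Acads, the short-chain enzyme that acts on butyryl-CoA, ranged from 7.77 to 9.21 (median 9.06) in controls and from 9.45 to 10.30 (median 10.14) in heme mice. Its rise of 2.35-fold (log2 1.23 ± 0.21 SE, limma adjusted p = 1.90e-04) was the largest among the dehydrogenases, and the gap between the groups was narrow. Controls 1 and 7 were lowest. Acadvl, the very-long-chain enzyme of the inner membrane, ran from 10.85 to 11.33 (median 11.14) in controls and from 11.33 to 11.72 (median 11.55) in heme mice. It rose by log2 0.44 ± 0.08 (SE, limma adjusted p = 5.01e-04), with the lowest heme mouse just above the highest control.

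The medium-chain enzyme Acadm and the short branched-chain enzyme Acadsb were not called. Acadm differed by -0.10 ± 0.07 (SE; 95% interval -0.26 to 0.05; limma adjusted p = 0.239). Acadsb, which lies near the signal floor, differed by -0.27 ± 0.17 (SE; 95% interval -0.64 to 0.09; limma adjusted p = 0.188). Their intervals lie below the value of Acadl, and the differences between enzymes were not tested.

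The mitochondrial trifunctional protein, which carries out the remaining steps on long chains, was higher in both subunits. Hadha, the alpha subunit with hydratase and dehydrogenase activity, ranged from 11.40 to 11.74 (median 11.53) in controls and from 12.15 to 12.37 (median 12.30) in heme mice. It rose 1.67-fold (log2 0.74 ± 0.06 SE, limma adjusted p = 2.05e-07), and no heme mouse came near the control range. Hadhb, the beta subunit with thiolase activity, rose 1.52-fold (log2 0.61 ± 0.10 SE, limma adjusted p = 1.09e-04), with 8 of 9 heme mice above all controls. The mitochondrial thiolase Acaa2 rose by log2 0.45 (limma adjusted p = 0.00155), with 8 of 9 heme mice above all controls. Hadh, the dehydrogenase for medium and short chains, differed by 0.01 ± 0.05 (SE; 95% interval -0.11 to 0.12; limma adjusted p = 0.937), and Acat1, the thiolase that joins or splits acetoacetyl-CoA, by 0.13 ± 0.08 (SE; 95% interval -0.04 to 0.30; limma adjusted p = 0.185). Neither was called.

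In peroxisomes the same steps are run by other enzymes, and all 4 of these in the set rose. Scp2, a peroxisomal thiolase outside the set, differed by 0.19 ± 0.09 (SE, limma adjusted p = 0.0927) and was not called. Acaa1b is a peroxisomal 3-ketoacyl-CoA thiolase. It ranged from 10.05 to 11.56 (median 10.55) in controls and from 12.59 to 13.27 (median 12.87) in heme mice. It rose 4.38-fold (log2 2.13 ± 0.19 SE, limma adjusted p = 5.14e-07), with controls 1 and 4 above the other controls and still below every heme mouse. Ehhadh, the L-bifunctional enzyme and a widely used PPARalpha target, ranged from 9.03 to 10.13 (median 9.49) in controls and from 10.93 to 11.76 (median 11.36) in heme mice. Its rise was 3.47-fold (log2 1.80 ± 0.16 SE, limma adjusted p = 4.37e-07), again without overlap. The D-bifunctional enzyme Hsd17b4 rose 1.65-fold (log2 0.72 ± 0.11 SE, limma adjusted p = 7.52e-05), also with the groups apart.

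Acaa1a, the second peroxisomal thiolase of the same family, rose too, and its difference from Acaa1b was not tested. It ran from 7.28 to 8.20 (median 7.94) in controls and from 8.04 to 8.55 (median 8.34) in heme mice, and the groups overlapped. The rise was 1.35-fold (log2 0.43 ± 0.12 SE, limma adjusted p = 0.00725), with 6 of 9 heme mice above all controls. The genes lie on the same chromosome with 4 coding genes between them. A pair of probe sets annotated to both thiolases gave differences of 1.22 ± 0.11 and 1.13 ± 0.10 (SE), between the value of the Acaa1b probe set and that of the Acaa1a probe set. Because the sequences are alike, the share of each gene in these signals is uncertain.

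Of 5 auxiliary enzymes for unsaturated chains 4 rose. Decr1 and Decr2, the mitochondrial and peroxisomal 2,4-dienoyl-CoA reductases, rose by log2 0.45 and 0.43 (limma adjusted p = 4.85e-04 and 1.51e-04). The enoyl-CoA isomerase Eci2 rose by 0.44 (limma adjusted p = 3.11e-04) and the dienoyl-CoA isomerase Ech1 by 0.28 (limma adjusted p = 0.0112). Eci1, the mitochondrial isomerase, was not called, at -0.12 ± 0.10 (SE; 95% interval -0.33 to 0.09; limma adjusted p = 0.336). Without control 2, the control with the lowest Eci1 value, its difference was -0.22 and was called lower (limma adjusted p = 0.0193).

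All 3 genes of electron transfer rose. Etfa and Etfb, the subunits of the electron transfer flavoprotein, rose by log2 0.41 and 0.54 (limma adjusted p = 5.78e-04 and 3.81e-05). Etfdh, the oxidoreductase that passes these electrons to ubiquinone, rose by 0.48 (limma adjusted p = 8.23e-05). Etfb and Etfdh were without overlap between the groups, and for Etfa 8 of 9 heme mice lay above all controls.

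The acyl-CoA thioesterases, which release free fatty acid and coenzyme A, all rose and held the 2 largest rises of the set. Acot2, the mitochondrial enzyme, ranged from 5.56 to 7.35 (median 6.05) in controls and from 8.80 to 9.33 (median 8.99) in heme mice. It rose 6.93-fold (log2 2.79 ± 0.21 SE, limma adjusted p = 9.07e-08), with control 1 highest among the controls. Acot1, the cytosolic enzyme, ranged from 6.02 to 7.77 (median 7.03) in controls and from 9.28 to 10.13 (median 9.69) in heme mice. Its rise was 6.34-fold (log2 2.67 ± 0.22 SE, limma adjusted p = 2.19e-07), and both genes had wide gaps between the groups. Acot8, a peroxisomal thioesterase, ran from 8.80 to 9.24 (median 8.98) in controls and from 9.62 to 9.96 (median 9.83) in heme mice, a rise of 1.73-fold (log2 0.79 ± 0.07 SE, limma adjusted p = 2.91e-07) without overlap.

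Acot2 and Acot1 are near-identical neighbours, and their probes can share signal. A probe set annotated to both rose by 2.92 ± 0.23 (SE), and another Acot2 probe set was under the floor in all 6 controls and between 5.42 and 6.73 in heme mice. In the RefSeq gene order Acot2 and Acot1 are followed by Acot4, a peroxisomal thioesterase outside the set. It ranged from 3.75 to 5.01 in controls, 3 of which were under the floor, and from 6.42 to 6.86 in heme mice. Its fitted difference was 2.29 ± 0.18 (SE), with all 9 heme mice above all controls. Acot4 had too few controls over the floor to pass the filter without the heme mice, so no p-value is given. Riox1, on the other side of Acot2, rose by 0.22 (limma adjusted p = 0.0245), and the groups overlapped. Without Acot1 and Acot2, 24 of 30 tested members rose.

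Bdh1, the ketone body dehydrogenase, ranged from 9.90 to 10.48 (median 10.05) in controls and from 10.32 to 10.70 (median 10.60) in heme mice. The groups overlapped, and the rise was 1.35-fold (log2 0.43 ± 0.09 SE, limma adjusted p = 9.17e-04). Pex11a, which promotes peroxisome division, ranged from 7.71 to 8.92 (median 8.49) in controls and from 9.10 to 9.62 (median 9.24) in heme mice. It rose 1.83-fold (log2 0.87 ± 0.14 SE, limma adjusted p = 1.30e-04), and the lowest heme mouse lay above the highest control.

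**Figure D3:**
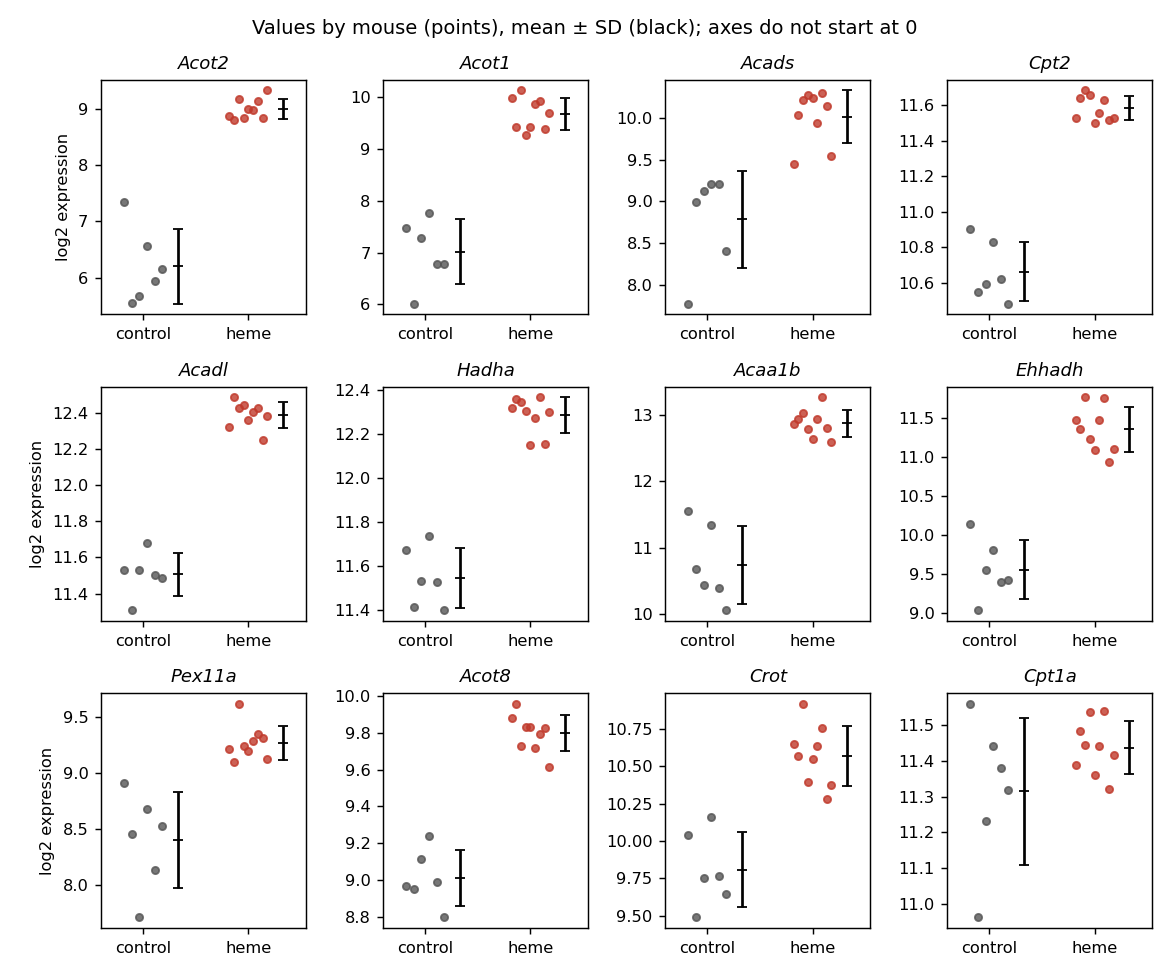
Log2 expression in each mouse for 12 members, with the mean and SD of each group; the axes differ and do not start at 0. In the first 11 panels the 9 heme mice lie above the 6 controls, while for Cpt1a the heme values lie within the control range of 10.96 to 11.56.

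By compartment, 8 of 8 tested peroxisomal members rose, with a median log2 difference of 0.78 (range 0.43 to 2.13), and 7 had no overlap between the groups. Among the 20 mitochondrial members 14 rose, and 9 of these showed no overlap; the median over all 20 was 0.45 (range -0.27 to 2.79). The 3 members of more than one compartment all rose, with a median of 0.28. For all tested genes the share called higher was 27.2%, the share with every heme mouse above every control 11.2%, and the median -0.01. The difference between the compartments was not tested. The mean over the mitochondrial members was 10.50 ± 0.15 (SD, n = 6) in controls and 11.03 ± 0.08 (SD, n = 9) in heme mice. The peroxisomal mean was 9.33 ± 0.25 (SD, n = 6) in controls and 10.33 ± 0.15 (SD, n = 9) in heme mice. Controls 1 and 4 had the highest and control 2 the lowest mean of both kinds among the controls.

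**Figure D4:**
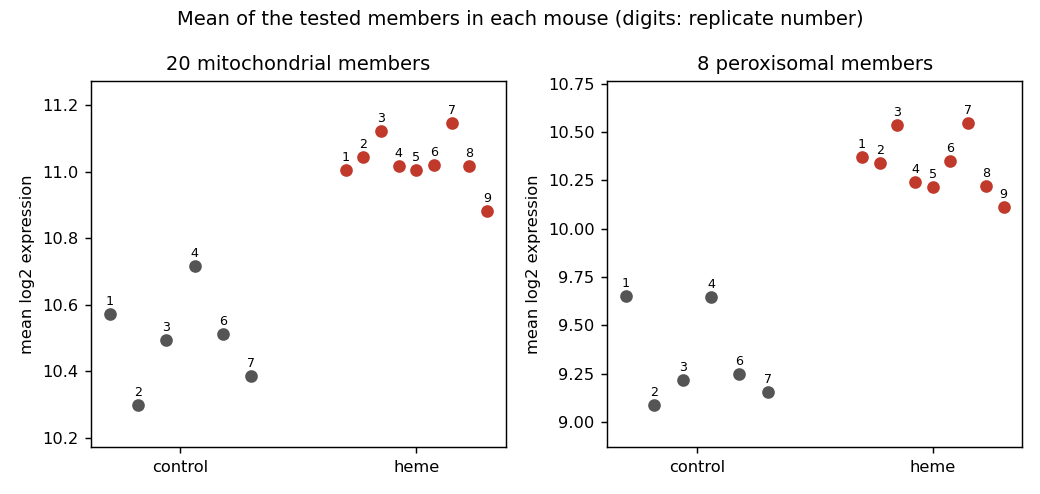
Mean log2 expression over the 20 mitochondrial and the 8 tested peroxisomal members in each mouse, with the replicate number beside each point; the axes do not start at 0. Mitochondrial means ran from 10.30 to 10.72 in controls and from 10.88 to 11.15 in heme mice, and peroxisomal means from 9.09 to 9.65 and from 10.11 to 10.55.

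The spread between mice was compared as well. The SD was larger in controls than in heme mice for 30 of 32 members (93.8%), against 61.1% of all tested genes. Single mice recurred at the ends. Control 2 was the lowest control for 21 of 32 members (28.8% of all tested genes), and control 4 the highest for 21 (20.4% of all tested genes). Heme mouse 7 was the highest heme mouse for 16 members (9.69% of all tested genes) and heme mouse 9 the lowest for 14 (24.3%).

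Controls 2 and 4 also stood apart in cell markers. The mean log2 level of 5 tested smooth muscle markers was 9.95 in control 2, 6.99 in control 4 and 7.95 to 8.20 in the other controls. The mean of the distal colon position genes was 3.19 in control 4 and 6.81 to 8.94 in the other controls. Control 2 was also high in fibroblast and stroma markers, at 10.03 against 6.51 in control 4 and 6.56 to 7.79 in the other controls, and in leukocyte markers, at 9.85 against 7.68 to 8.30 in all other controls.

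Markers of several cell types moved with the diet. The counts below stand beside 27.2% of all tested genes called higher and 26.4% called lower. All 5 tested of 8 smooth muscle markers fell with heme. The summed signal of the 8 ran from 2177 to 7443 in controls and from 1277 to 1922 in heme mice, and none was under the floor on every array. Of the goblet cell markers 5 of 7 fell and 0 rose, with summed signals of 105117 to 114815 in controls and 92315 to 104728 in heme mice. Of the enteroendocrine markers 4 of 7 fell and 0 rose, with sums of 7960 to 11533 and 4601 to 5896. Chga, a granin, fell most, 7.24-fold (limma adjusted p = 2.52e-08), and Chgb, Tph1 and Neurod1 also fell. Pyy, Gcg and Insl5, at log2 -0.19, -0.11 and 0.69, were not called (limma adjusted p = 0.194, 0.474 and 0.462). The 3 tested of 4 tuft cell markers fell, with sums of 114 to 149 and 59.0 to 86.8, and Pou2f3 was under the floor on every array. Trpm5 was under the floor in all 9 heme mice and passed the filter only through the controls. Dclk1 was under it in 7 of 9 heme mice, so the tuft cell sums lie near the floor. In the goblet, enteroendocrine and tuft cell lists, as in the smooth muscle list, the sums of the groups did not overlap. The part of the first 3 lists in the members' rise was not tested. The epithelial markers were present throughout, with 8 of 8 tested, 2 higher and 1 lower with heme, and their mean level was 12.31 ± 0.08 (SD, n = 6) in controls and 12.35 ± 0.06 (SD, n = 9) in heme mice. Of 10 absorptive colonocyte markers 2 rose, 3 fell and 5 were not called. Their mean level was 12.53 ± 0.04 (SD, n = 6) in controls and 12.55 ± 0.04 (SD, n = 9) in heme mice. Of 6 tested fibroblast and stroma markers 0 were called, and of 2 tested leukocyte markers 1 fell and 0 rose. Controls 2 and 4 and heme mouse 6 were left out together, a choice made after the data were seen. Again 26 members rose and 0 fell, with 52.1% of all tested genes called. Heme mouse 6 was not among the mice that recurred at the ends for the members, and heme mice 7 and 9 were kept. The fit without covariates called 53.6% of all tested genes. With the smooth muscle level as a covariate in limma, 35.8% of the 9257 were called, 1662 higher and 1655 lower. There 16 members rose, 6 of them peroxisomal and 9 mitochondrial, and 2 fell. In that fit Acadvl, Acaa1a, Bdh1, Acaa2, Etfa, Decr1, Decr2, Eci2, Ech1 and Crat were no longer called, and Acadm and Eci1 were called lower.

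The wider pathway was read from lists of other genes. Of 40 tested genes in the lists of other oxidation enzymes, 19 rose and 4 fell, beside 27.2% and 26.4% of all tested genes. The median over the 40 was 0.18. These lists reach beyond oxidation enzymes. They hold the transporter Slc22a5, the transferases Mgst1 and Gstk1 and the methyltransferase Etfbkmt, of which Etfbkmt fell and the others rose. Acox2, the oxidase of bile acid side chains and branched chains, was under the floor in all 6 controls and between 5.83 and 7.32 in heme mice. Against the floor it was at least 4.39-fold higher. Acox2 passed the filter only through the heme mice, so no p-value is given, and it is counted among the 19. Acot9, a mitochondrial thioesterase, rose by log2 1.01 ± 0.09, and Slc22a5, the plasma membrane carnitine transporter, by 0.61 ± 0.11 (SE; limma adjusted p = 4.42e-07 and 2.27e-04). Among those that fell, Etfbkmt, which methylates Etfb, fell by 0.80 ± 0.11 and Acad10 by 0.66 ± 0.11 (SE; limma adjusted p = 3.42e-05 and 1.17e-04). Hao2, a peroxisomal hydroxyacid oxidase, fell by 0.43 ± 0.06 (SE, limma adjusted p = 3.71e-05).

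Of 3 tested genes of ketone body use and transport outside the set, 2 rose and 1 fell. Aacs, which activates acetoacetate in the cytosol, rose by log2 0.64 ± 0.10, and Slc16a1, a carrier of lactate, butyrate and ketone bodies, by 0.48 ± 0.07 (SE; limma adjusted p = 7.66e-05 for both). Oxct1, the enzyme that starts ketone body breakdown, fell by 0.30 ± 0.11 (SE, limma adjusted p = 0.0267). Every heme value of Oxct1 lay within the control range of 11.60 to 12.37. Of 15 tested peroxisome biogenesis genes 8 rose and 1 fell, against 27.2% and 26.4% of all tested genes. The median over the 15 was 0.19. Pex19, the receptor for peroxisomal membrane proteins, rose by 0.67 ± 0.10, Pex11g, of the same family as Pex11a, rose by 0.62 ± 0.16, and Pex26 fell by 0.44 ± 0.07 (SE; limma adjusted p = 7.15e-05, 0.00369 and 1.04e-04).

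Of 19 tested regulators of fatty acid oxidation 4 were higher (21.1%), near the 27.2% of all tested genes, and 8 were lower, against 26.4% of all tested genes. Their median was -0.28. Creb3l3, a membrane-bound transcription factor of lipid metabolism, ranged from 5.52 to 7.18 in controls and from 9.22 to 9.67 in heme mice, a rise of 9.21-fold (log2 3.20 ± 0.20 SE, limma adjusted p = 1.38e-08). Pdk4, the kinase that restrains pyruvate dehydrogenase, ranged from 6.64 to 10.22 in controls and from 10.72 to 11.70 in heme mice, a rise of 8.84-fold (log2 3.14 ± 0.39 SE, limma adjusted p = 1.07e-05). Neither overlapped. Ppargc1a, a coactivator of oxidative metabolism, fell by 1.51 ± 0.11 on the log2 scale (SE, limma adjusted p = 5.21e-08), with all 9 heme mice below all controls. Ppara, the receptor itself, fell by 0.59 ± 0.22 (SE, limma adjusted p = 0.0309). Every heme value of Ppara lay within the control range of 8.16 to 9.96.

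Both ends of malonyl-CoA metabolism, the brake on Cpt1a, were higher, in genes chosen after their values were seen. Acacb, the carboxylase that makes malonyl-CoA at mitochondria, was under the floor in all 6 controls and between 5.42 and 6.55 in heme mice. Against the floor it was at least 3.09-fold higher. Acacb passed the filter only through the heme mice, so no p-value is given, and it is counted among the regulators that were higher. Mlycd, the decarboxylase that removes malonyl-CoA, rose by log2 0.65 ± 0.09 (SE, limma adjusted p = 3.41e-05).

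**Figure D5:**
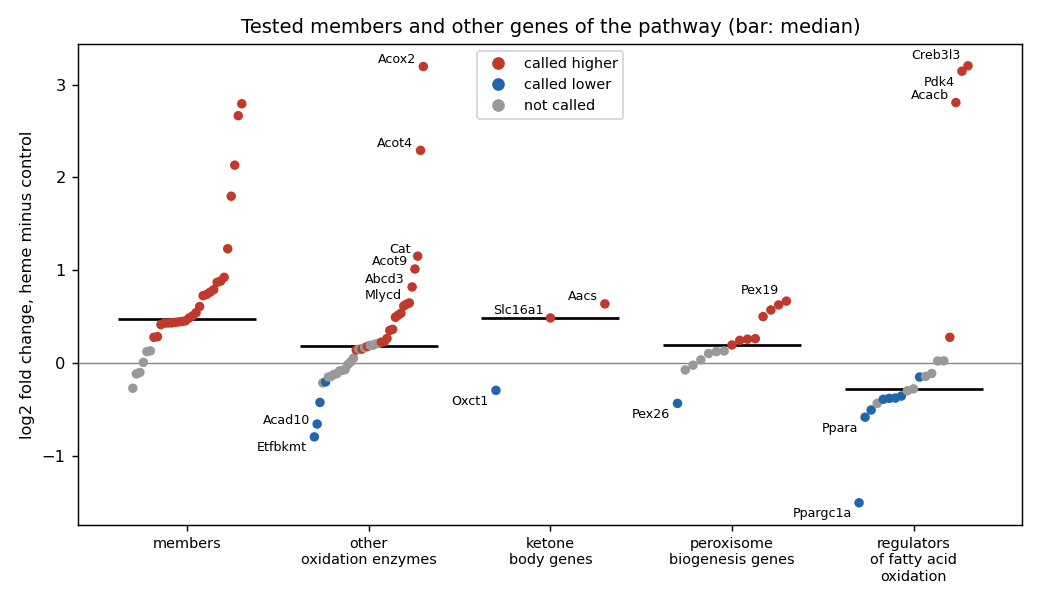
Log2 difference, heme minus control, of the tested members and of the other genes of the pathway by list, 1 point per gene, with bars at the medians. The members have a median of 0.47, the lists of other oxidation enzymes 0.18, the peroxisome biogenesis genes 0.19 and the regulators -0.28. Acox2 and Acacb are drawn at their fitted values, with controls under the floor.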

How the data were processed

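Colon scrapings of 15 mice were measured, 1 Affymetrix array per mouse, with replicates as separate mice. The deposited values are log2 expression that the authors normalised with GCRMA 2.22.0, per the submitters' processing notes; GCRMA shrinks low signals, which can inflate differences near the floor. For each gene the probe set with the highest mean over 15 arrays was used, among 34958 probe sets with 1 symbol in the array annotation (932 had several and 9211 none). limma 3.58.1 in R 4.3.3 compared 9 heme with 6 control mice without covariates, and p-values were adjusted by Benjamini-Hochberg over the 9257 genes with signal over 20 on at least 6 arrays. The procedure was tested on simulated data. Array medians ran from 3.11 to 3.24, and the number of mice limits the precision. Members and lists were chosen with earlier results of these data known. Values per mouse were given for the 5 mitochondrial and the 5 other members with the largest called change and for Cpt1a, Acadvl, Acaa1a, Acot1 and Bdh1, and for each list the 2 largest rises and falls. Other lists held markers of cell types. Alternatives covered filters, probe sets, scaling, weights, a replicate block, array number and each mouse left out. Control replicate 5 was not analysed here.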

Additional observations from a re-analysis of the deposited data

Results flagged for a closer look

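Pex11a in heme replicate 3 was 9.62, above the other 8 heme mice at 9.10 to 9.35. Its gap to the nearest mouse was 0.527 of the range of the group, over Dixon's critical value for 9 samples. It was the only 1 of 70 groups of values tested this way, and chance gives about 1 in 20.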

How the results depend on the processing

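Filters, scaling, array weights, the variance model and the array number kept every count of members within 1.5 times the value reported, and none of the results changed direction while called. Leaving out single mice gave 26 to 27 members higher and 0 to 1 lower, 14 to 15 mitochondrial members higher and 0 to 1 lower, 8 peroxisomal members higher, 2332 to 2557 genes higher and 2185 to 2538 lower, 26 to 33 genes of the other pathway lists higher and 12 to 17 lower, and medians of 0.41 to 0.51 (mitochondrial) and 0.74 to 0.83 (peroxisomal). The member called lower was Eci1, without control 2.

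Groups shared 6 replicate numbers, but same-numbered mice did not deviate together: correlations ran from -0.19 to 0.20, 1 was over 0.1, and 2 mice matched their own number best. With the replicate block 26 members were higher and 0 lower, and the genes called lower in the other lists dropped from 14 to 8; Crat was not called (limma adjusted p = 0.0754) and Acat1 was higher (0.18, limma adjusted p = 0.0464). Averaging probe sets called Cpt1a (0.30, limma adjusted p = 0.00658) and Acat1 (0.15, limma adjusted p = 0.0382) higher, and Acat1 was also called without heme 9 (0.17, limma adjusted p = 0.0494).

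The smooth muscle covariate, chosen after seeing the data, gave 1662 genes higher and 1655 lower, with 35.8% of all tested genes called. Of the members 16 were higher and 2 lower, and of the mitochondrial members 9 were higher and 2 lower. The smooth muscle covariate also gave 16 genes of the other lists higher, and medians of 0.24 (mitochondrial) and 0.59 (peroxisomal). These markers fell with heme themselves, so the covariate and the diet cannot be fully told apart. Another background correction and the targeting tripeptide of the member proteins were not run. Members near the signal floor, Acox3 and Acadsb, carry little information.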

Other observations

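Of 19 tested genes in the list named other peroxisomal oxidation enzymes 10 rose, 1 fell and 8 were not called. This list also holds genes that are not oxidation enzymes, such as Mgst1 and Gstk1. The peroxisomal genes Nudt7 and Nudt19, which rose, had been placed in the mitochondrial list and are not in this count. Among all tested genes 27.2% rose and 26.4% fell. The 3 genes described next were chosen after their values were seen. Catalase (Cat), which removes the hydrogen peroxide made by acyl-CoA oxidases, rose by log2 1.15 ± 0.14 (SE, limma adjusted p = 1.15e-05). Abcd3, a half-transporter of acyl-CoA into peroxisomes, rose by 0.82 ± 0.07 (SE, limma adjusted p = 4.20e-07), and every heme mouse lay above every control in both. Ephx2, the soluble epoxide hydrolase, rose by 0.49 ± 0.14 (SE, limma adjusted p = 0.00864) with overlap between the groups.

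Of the adipocyte markers, 1 of 3 tested rose (33.3%), near the 27.2% of all tested genes called higher. The 1 that rose was Cidec, a lipid droplet protein, by log2 2.86 ± 0.28 (SE, limma adjusted p = 1.14e-06). Adipoq and Fabp4, at -0.36 ± 0.85 and -0.17 ± 0.52 (SE), were not called (limma adjusted p = 0.741 and 0.803), and Lep, Retn and Ucp1 were under the signal floor on every array. The summed signal of the list ran from 299 to 1349 in controls and from 419 to 1934 in heme mice, and its part in the results was not tested.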
